A study of Mus musculus with 6 samples.

Results

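The nuclear receptor genes and their heterodimer partners were compared between control and Mst1/2-deficient mouse liver. They were taken by symbol alone, as the rows named Nr followed by a number from 0 to 6, a letter from a to h and a final digit, without Nr0b2 and Nr1h4, together with 15 receptors that carry other names: Ppara, Ppard, Pparg, Rxra, Rxrb, Rxrg, Rara, Rarb, Rarg, Thra, Thrb, Esr1, Esrra, Vdr and Rora. This gave 36 of the 22068 gene symbols in each file. The rule itself uses no measured value, but it was set with earlier results of these data known. Polyadenylated RNA was sequenced from the livers of C57BL/6 mice aged 6 weeks, with 3 control and 3 dKO libraries. All mice carried the genotype Mst1-/- and Mst2fl/fl, so the controls also lacked Mst1 and were not wild type. Control mice were alb-Cre-/-, whereas the group labelled Mst1/2 liver-dKO (here dKO) was alb-Cre+/+ and expressed Cre recombinase from the albumin promoter, which is active in hepatocytes. Mst1 and Mst2 are the Hippo pathway kinases encoded by Stk4 and Stk3.

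Nuclear receptors are transcription factors that bind hormones, lipids, bile acids or drugs, or act without a known ligand. Many of those in liver (the PPARs, LXRs, thyroid hormone, retinoic acid, vitamin D and xenobiotic receptors) bind DNA as a pair with a retinoid X receptor (RXR), while the steroid receptors form pairs with themselves and a few orphan receptors bind alone. In hepatocytes they set fatty acid oxidation, cholesterol and bile acid turnover, gluconeogenesis, drug metabolism and the output of the circadian clock.

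Levels are RPKM, reads scaled by transcript length and library depth, which can be compared between genes. The files gave no read totals. Depths estimated from the steps between low values lay between 17.05 and 24.5 M reads for the controls and between 20.7 and 24.05 M for dKO, so 1 RPKM on a transcript of 1 kb stood for that many reads without the M. Which part of either kinase gene is deleted is not given in the sources used here. Stk3 stood at 6.002, 5.42 and 5.199 RPKM in the controls and 5.13, 4.25 and 5.32 RPKM in the dKO libraries and Stk4 at 4.95 ± 0.478 and 5.51 ± 0.506 RPKM in control and dKO libraries, and as 1 value per gene can hold reads of undeleted exons these values did not test the genotypes. Hepatocyte markers were abundant in every library, with a sum over 8 markers of 53436 to 69039 RPKM in control and 51471 to 60611 RPKM in dKO libraries, most of it Alb. At a limma adjusted p under 0.05, 0 of these 8 rose and 1 fell, beside 17.8% and 2.17% of all tested genes. The one that fell was Ttr (limma adjusted p 0.0413), a call lost in 10 of 15 alternatives. The sum over 8 cholangiocyte markers ran from 28.1 to 80.4 RPKM in control and from 341 to 986 RPKM in dKO libraries, highest in dKO replicate 3. Spp1 alone gave most of this sum in every library, with 34.8 ± 25.9 RPKM in control and 556 ± 315 RPKM in dKO libraries. At the same threshold all 6 that were tested rose, beside 17.8% of all tested genes, and 5 did so without dKO replicate 3. The sums over 10 stellate markers were 171 to 195 and 177 to 296 RPKM, those over 8 macrophage markers 109.8 to 226 and 181 to 265 RPKM, and those over 8 sinusoidal endothelial markers 99.8 to 105 and 107 to 122 RPKM in control and dKO libraries, again with dKO replicate 3 highest. Dcn alone gave most of the stellate sum in every library, with 123 ± 16.1 RPKM in control and 127 ± 22.6 RPKM in dKO libraries. Of the stellate markers 1 rose (Ngfr) and 1 fell (Hand2), calls lost in 6 and 5 of 15 alternatives. Of the macrophage markers 1 rose (Vsig4) and 0 fell, and of the endothelial markers 0 were called. At an unadjusted p under 0.05 in limma, 4 stellate markers were higher and 1 lower, and 3 macrophage markers higher and 1 lower. Over all tested genes these shares were 33.0% and 4.91%. None of the markers on these 5 lists was at 0 in all libraries. In bulk tissue, a change in the number of cells of a type and a change in RNA per cell cannot be told apart, and the part of these markers in the results below was not tested.

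Few liver nuclear receptor transcripts passed a test between the groups. Of the 36 genes, 28 reached a mean of 1 RPKM and were tested with limma on log2(RPKM + 1) over all 11062 genes that passed this filter. At a Benjamini-Hochberg adjusted p under 0.05, 3 rose in dKO liver (Thra, Nr2f6 and Rxrg) and 0 fell. That is 10.7% called higher beside 17.8% of all tested genes, and 0% called lower beside 2.17%. Neither share exceeds that of all genes, and neither is a result about the receptors. At an unadjusted p under 0.05 limma gave 8 genes higher (28.6%, beside 33.0% of all tested genes) and 1 lower (3.57%, beside 4.91%). The dKO libraries lay wholly above the controls for 8 of the 28 genes (28.6%, beside 38.3% of all tested genes) and wholly below them for 3 (10.7%, beside 6.73%). The remaining 17 overlapped between the groups. The labels do not say that the replicates were separate animals, so p-values measure only the spread between these libraries, which may be technical.

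Which receptors were called depended on how the libraries were scaled, while the 3 called genes kept their direction. The median log2 change, dKO minus control, was 0.11 over the 28 receptors and 0.23 over all tested genes, with 13 receptors above that median and 15 below it. Median-ratio scaling of the RPKM moved the median of all genes by 0.24, to -0.01, and that of the receptors to -0.15. After it, 0 receptors were called higher (7.89% of all tested genes were) and 2, Nr5a2 and Nr1h5, were called lower (5.55% of all tested genes were). The share of all RPKM that went to the 20 most abundant genes was 31.0% to 36.7% in control and 26.9% to 30.7% in dKO libraries, and the part of this in the shift was not tested. In 26 of the 28 genes the 95% interval of the log2 change, on the deposited scale, lay within 1 of 0 on either side.

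**Figure D1:**
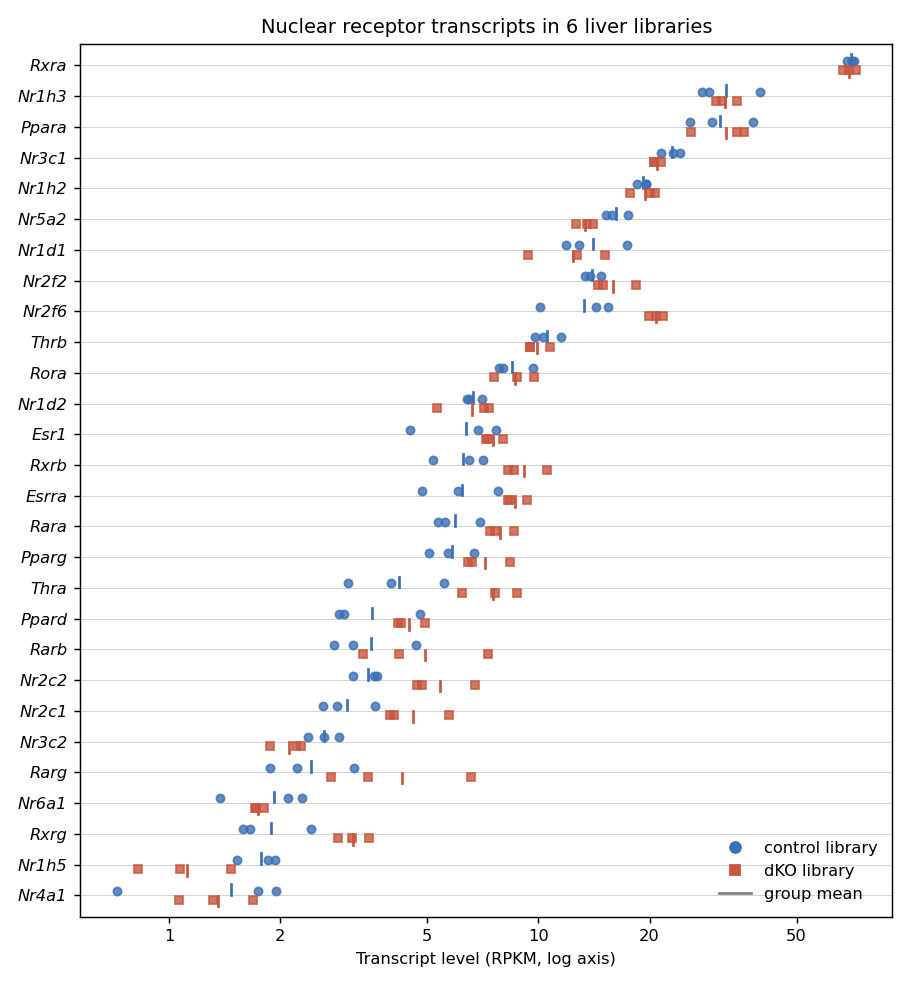
Transcript level (RPKM, log axis) of the 28 tested nuclear receptor genes in each of the 3 control libraries (circles) and 3 dKO libraries (squares), ordered by the control mean, with vertical ticks at the group means. Rxra stands alone at the top near 70 RPKM, and Nr2f6, Thra and Rxrg are among the 8 genes whose dKO libraries all lie to the right of the controls.

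The levels spanned a wide range, with Rxra first and Nr1h3 and Ppara next in both groups. Rxra was the most abundant receptor of the set by a clear margin and alone made up 20.5% to 23.98% of the summed receptor RPKM in control and 19.4% to 21.1% in dKO libraries. Nr1h3 (32.2 ± 6.58 RPKM, SD, n = 3 libraries, as for every mean here) and Ppara (31.1 ± 6.33 RPKM) followed in the controls and could not be separated, since their ranges overlapped. Nr3c1 (22.95 ± 1.41 RPKM) and Nr1h2 (19.2 ± 0.609 RPKM) came next, each clear of its neighbours. Nr5a2, Nr1d1, Nr2f2, Nr2f6 and Thrb formed a chain of overlapping ranges with means between 10.5 and 16.2 RPKM. Rora (8.504 RPKM) stood apart from the genes on either side of it. From Nr1d2 downward to Nr4a1, 17 genes lay at 6.65 RPKM or less with each range overlapping that of the next. Nr2f6 held rank 9 among the control means and rank 5 among the dKO means.

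The RXRs are the shared partners of the family. Rxra, the main liver RXR, measured 70.9, 68.6 and 71.6 RPKM in the controls and 72.2, 69.4 and 67.02 RPKM in the dKO libraries. The groups overlapped and the log2 change was -0.02 ± 0.13 (SE), with a 95% interval of -0.31 to 0.27 and a limma adjusted p of 0.932. Rxrb, the ubiquitous RXR, measured 5.17, 6.496 and 7.08 RPKM in the controls and 8.604, 8.26 and 10.6 RPKM in the dKO libraries. All 3 dKO libraries were above all 3 controls, and the log2 change of 0.49 ± 0.15 (SE) had a limma adjusted p of 0.052. Rxrb passed in 1 of 15 alternatives (limma adjusted p range 0.0269 to 0.241). Rxrg, the RXR best known from muscle and brain, measured 1.58, 2.42 and 1.65 RPKM in the controls and 2.86, 3.47 and 3.12 RPKM in the dKO libraries. It rose 1.67-fold in the ratio of means, without overlap, by 0.53 ± 0.16 (SE) on the log2 scale, and had a limma adjusted p of 0.049. That change was 0.30 above the median of all tested genes. The call of Rxrg stood close to the threshold and was lost in 10 of 15 alternatives, among them median-ratio scaling (log2 change 0.33, limma adjusted p 0.161) and the removal of any library except control replicate 2 (limma adjusted p over the alternatives 0.00565 to 0.467).

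The promoter of Rxrg is shown because it is a called gene with a window that holds a hexamer that nuclear receptors bind. RefSeq gives Rxrg more than 1 start site, and the sequence printed is the 250 bases before the downstream one (build GRCm38.p6, chr1:167618015-167618264, plus strand), 5′ to 3′ on the gene's strand, with the half-site AGGTCA in capitals, its first base 88 bases before the start.
Rxrg: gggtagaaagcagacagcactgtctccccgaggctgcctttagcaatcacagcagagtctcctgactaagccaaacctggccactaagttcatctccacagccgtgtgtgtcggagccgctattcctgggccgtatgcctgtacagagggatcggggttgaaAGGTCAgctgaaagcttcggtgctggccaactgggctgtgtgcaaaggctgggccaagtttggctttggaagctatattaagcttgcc
The window of the upstream start of Rxrg holds no AGGTCA. The files give 1 value per symbol, so which start site the reads came from was not measured.

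Thyroid hormone receptors switch genes of metabolism on or off with hormone, and Thrb is the main form in liver. Thra, the form that prevails in heart, bone and brain, measured 3.06, 5.54 and 3.98 RPKM in the controls and 7.61, 6.202 and 8.74 RPKM in the dKO libraries. Every dKO library exceeded every control. Thra had the largest log2 change among the 28 tested receptors of the set, 1.79-fold in the ratio of means and 0.73 ± 0.20 (SE) on the log2 scale, 0.50 above the median of all tested genes (limma adjusted p 0.0339). The call was lost in 8 of 15 alternatives, including median-ratio scaling (log2 change 0.49, limma adjusted p 0.0831), the fit without a filter, and the removal of control replicate 1 or 3 or of dKO replicate 1 or 3 (limma adjusted p over the alternatives 0.00163 to 0.111). Thra and Nr1d1 lie on opposite strands and share exon sequence at their 3′ ends in GENCODE M21, and the labels' library protocol describes no step that marks strand, so reads of the shared part cannot be assigned to either. Thrb measured 9.78, 11.5 and 10.3 RPKM in the controls and 9.46, 10.8 and 9.49 RPKM in the dKO libraries. These overlapped, with a log2 change of -0.08 ± 0.12 (SE), a 95% interval of -0.36 to 0.19 and a limma adjusted p of 0.646.

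Retinoic acid receptors carry the vitamin A signal. Rara, the broadly expressed form, measured 6.95, 5.59 and 5.34 RPKM in the controls and 7.39, 8.57 and 7.61 RPKM in the dKO libraries. The groups did not overlap, yet the log2 change of 0.35 ± 0.14 (SE) had a limma adjusted p of 0.0958. Rara passed in 1 of 15 alternatives (limma adjusted p range 0.0163 to 0.712). Rarb, itself a classical retinoic acid target, measured 3.14, 2.796 and 4.65 RPKM in the controls and 4.19, 3.35 and 7.29 RPKM in the dKO libraries. Rarg, best known from skin and cartilage, measured 1.87, 2.22 and 3.17 RPKM in the controls and 2.75, 3.46 and 6.57 RPKM in the dKO libraries. In both, dKO replicate 3 was the highest of the 6 libraries and dKO replicate 1 lay within the control range. The summed stellate markers were highest in that same dKO replicate 3, and their part was not tested. Their log2 changes were 0.36 ± 0.25 (SE) and 0.57 ± 0.27 (SE), with limma adjusted p of 0.325 and 0.152. Across the tested receptors, 13 of 28 were highest in dKO replicate 3, 46.4% beside 52.4% of all tested genes. Exons of Top2b on the other strand overlap 34.1% of the exonic bases of Rarb, so the Rarb value may hold reads of both. Top2b averaged 10.6 and 15.4 RPKM in control and dKO libraries, and its part was not tested.

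The COUP-TF receptors are orphan receptors that mostly repress and compete for the sites of other receptors. Nr2f6, which encodes EAR2, measured 10.1, 14.3 and 15.5 RPKM in the controls and 19.9, 20.8 and 21.7 RPKM in the dKO libraries. The lowest dKO library exceeded the highest control. It rose 1.56-fold in the ratio of means, with a log2 change of 0.63 ± 0.16 (SE), 0.40 above the median of all tested genes, and a limma adjusted p of 0.0291, the smallest among the 28 tested receptors of the set. The call was lost in 8 of 15 alternatives, including median-ratio scaling (log2 change 0.36, limma adjusted p 0.144), the fit without a filter, and the removal of control replicate 1 or of any 1 dKO library (limma adjusted p over the alternatives 0.011 to 0.144). Control replicate 1 held the lowest Nr2f6 value, and without it the log2 change was 0.46. Exons of Nr2f6 and of Ocel1 overlap on opposite strands in GENCODE M21, over 54.4% of the exonic bases of Nr2f6, so its value may hold reads of both. Ocel1 itself stood at 2.46 and 2.48 RPKM in the control and dKO means, which do not show to which gene the shared reads belong. Nr2f2, which encodes COUP-TFII of venous endothelium and mesenchyme as well as hepatocytes, measured 13.4, 14.8 and 13.8 RPKM in the controls and 14.5, 14.98 and 18.4 RPKM in the dKO libraries. Those libraries overlapped, with a log2 change of 0.17 ± 0.13 (SE) and a limma adjusted p of 0.352.

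The promoter of Nr2f6 is shown as that of the called gene with the smallest adjusted p. It is the 250 bases before the RefSeq start (build GRCm38.p6, chr8:71381953-71382202, minus strand), 5′ to 3′ on the gene's strand, all in lower case because it holds neither the half-site AGGTCA nor the hexamers GGAATG or CACGTG on either strand.
Nr2f6: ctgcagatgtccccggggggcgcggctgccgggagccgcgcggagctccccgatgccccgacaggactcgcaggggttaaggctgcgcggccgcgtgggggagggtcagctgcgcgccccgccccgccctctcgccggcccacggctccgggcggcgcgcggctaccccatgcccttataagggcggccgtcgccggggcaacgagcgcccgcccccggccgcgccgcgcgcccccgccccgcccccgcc

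The testicular receptors TR2 and TR4, encoded by Nr2c1 and Nr2c2, are orphan receptors that bind as a pair. Nr2c1 averaged 3.02 ± 0.527 and 4.58 ± 0.976 RPKM and Nr2c2 3.46 ± 0.275 and 5.41 ± 1.13 RPKM in control and dKO libraries, without overlap in either case and with dKO replicate 3 highest. Their log2 changes were 0.47 ± 0.17 (SE) and 0.51 ± 0.16 (SE), with limma adjusted p of 0.0816 and 0.0503, so neither passed. Nr2c1 passed in 1 of 15 alternatives (limma adjusted p range 0.0111 to 0.44). Nr2c2 passed with a pseudocount of 0.1, with a filter of 1 RPKM in 3 libraries and with sample weights (limma adjusted p over 15 alternatives 0.0147 to 0.289). Exons of Mrps25 on the other strand overlap 30.7% of the exonic bases of Nr2c2. Mrps25 averaged 4.46 and 5.60 RPKM in control and dKO libraries, and its part was not tested.

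**Figure D2:**
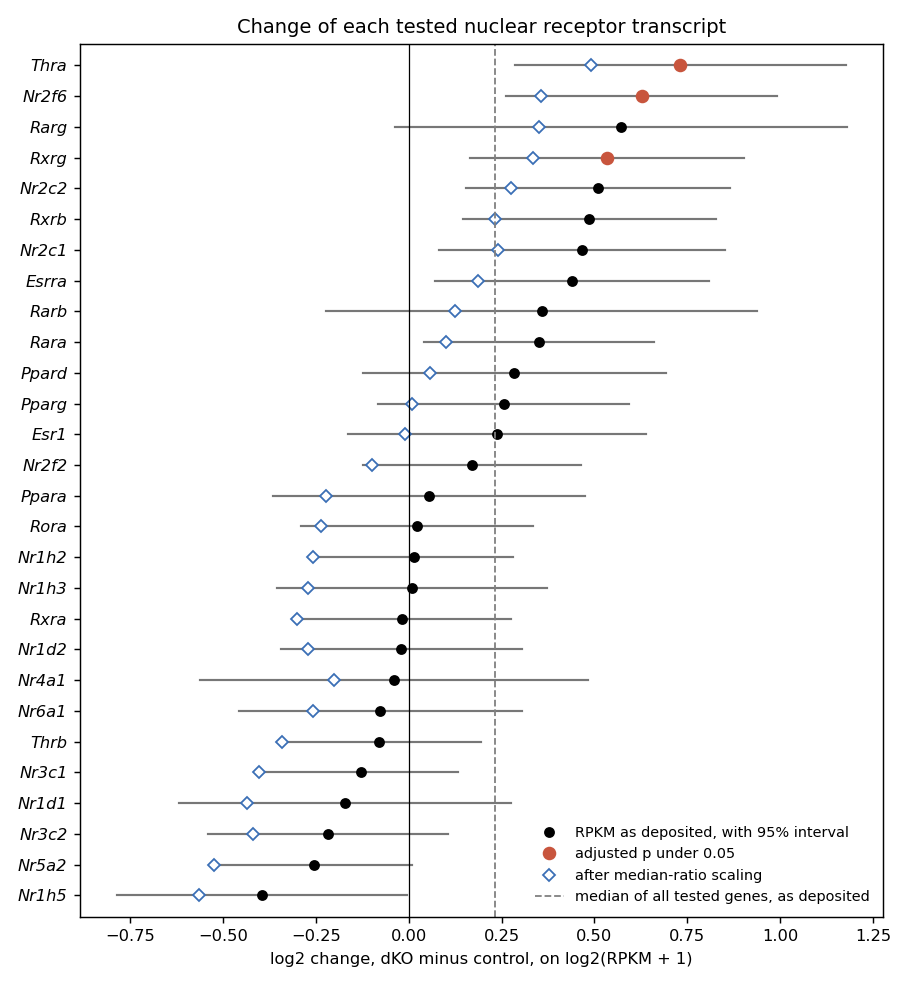
Log2 change, dKO minus control on log2(RPKM + 1), of the 28 tested receptors as deposited (filled circles, with 95% intervals from limma; the 3 called genes larger) and after median-ratio scaling (open diamonds, no interval drawn). The dashed line is the median of all tested genes as deposited, 0.23, and scaling moves every receptor to the left, the 3 called genes staying above 0.

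None of the PPARs and LXRs, the lipid-sensing receptors, passed the test in the main fit. Ppara, the fatty acid sensor that drives hepatic fat oxidation, measured 25.7, 29.5 and 38.04 RPKM in the controls and 34.5, 36.1 and 25.9 RPKM in the dKO libraries. The ranges overlapped, and the log2 change of 0.05 ± 0.18 (SE) had a 95% interval of -0.37 to 0.47 and a limma adjusted p of 0.843. After median-ratio scaling it was -0.22 and did not pass either. Pparg, the adipogenic PPAR that marks fatty liver, measured 5.695, 6.69 and 5.06 RPKM in the controls and 8.38, 6.62 and 6.44 RPKM in the dKO libraries. Ppard, the ubiquitous PPAR, measured 2.89, 4.78 and 2.97 RPKM in the controls and 4.25, 4.17 and 4.94 RPKM in the dKO libraries. Their limma adjusted p were 0.233 and 0.27, and both overlapped between the groups. Pparg and Ppard each passed in 1 of 15 alternatives (limma adjusted p ranges 0.00735 to 0.974 and 0.0377 to 0.895). The oxysterol receptors LXR alpha and LXR beta are encoded by Nr1h3 and Nr1h2. Nr1h3 measured 27.8, 39.8 and 29.1 RPKM in the controls and 31.4, 34.5 and 30.2 RPKM in the dKO libraries. Nr1h2 measured 19.5, 19.6 and 18.5 RPKM in the controls and 20.05, 17.7 and 20.6 RPKM in the dKO libraries. Neither pair of groups was separated, with log2 changes of 0.01 ± 0.16 (SE) and 0.02 ± 0.12 (SE), 95% intervals of -0.36 to 0.37 and -0.25 to 0.28, and limma adjusted p of 0.972 and 0.932. Both turned negative after median-ratio scaling, at -0.27 and -0.26, again without passing.

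Nr1h5 encodes FXR beta, a lanosterol-binding relative of the bile acid receptor. It measured 1.53, 1.94 and 1.86 RPKM in the controls and 0.823, 1.07 and 1.47 RPKM in the dKO libraries. Each dKO library was below each control, and the log2 change of -0.40 ± 0.17 (SE) had a limma adjusted p of 0.128. After median-ratio scaling the log2 change was -0.56 and passed (limma adjusted p 0.0408, range over 15 alternatives 0.00541 to 0.347).

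The steroid receptors bind DNA as pairs with themselves. Nr3c1, the glucocorticoid receptor, measured 21.5, 24.3 and 23.2 RPKM in the controls and 20.6, 21.5 and 20.6 RPKM in the dKO libraries. The groups overlapped by a narrow margin, with a log2 change of -0.13 ± 0.11 (SE) and a limma adjusted p of 0.431. Nr3c2, the mineralocorticoid receptor, stood at 2.63 ± 0.255 RPKM in the control and 2.12 ± 0.217 RPKM in the dKO libraries, all dKO libraries below all controls, with a limma adjusted p of 0.285. After median-ratio scaling Nr3c2 had a limma adjusted p of 0.0502 and did not pass, whereas it passed with quantile normalization (range over 15 alternatives 0.0232 to 0.493). Esr1, the estrogen receptor alpha of hepatocytes, measured 4.499, 7.67 and 6.87 RPKM in the controls and 7.32, 8.01 and 7.19 RPKM in the dKO libraries. The wide control spread covered most dKO values, and the limma adjusted p was 0.345. Esrra, an orphan relative that works with PGC-1 on mitochondrial genes, measured 4.84, 7.78 and 6.05 RPKM in the controls and 8.39995, 8.28 and 9.31 RPKM in the dKO libraries. The dKO libraries lay above the controls, with a log2 change of 0.44 ± 0.16 (SE) and a limma adjusted p of 0.0858, which passed without control replicate 2 and with sample weights (range over 15 alternatives 0.0103 to 0.378).

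Nr5a2, called LRH-1, binds DNA alone and works on bile acid and cholesterol genes. It measured 17.5, 15.2 and 15.9 RPKM in the controls and 12.6, 14.1 and 13.5 RPKM in the dKO libraries. Every dKO library was lower than every control. The log2 change of -0.25 ± 0.12 (SE) did not pass (limma adjusted p 0.141), while after median-ratio scaling it was -0.52 and passed (limma adjusted p 0.0354, range over 15 alternatives 0.0176 to 0.34). Its promoter is shown as that of the most abundant receptor with a call after scaling: the 250 bases before the upstream of the RefSeq starts (build GRCm38.p6, chr1:136960449-136960698, minus strand), 5′ to 3′ on the gene's strand, with the half-site AGGTCA in capitals, its first base 64 bases before the start.
Nr5a2: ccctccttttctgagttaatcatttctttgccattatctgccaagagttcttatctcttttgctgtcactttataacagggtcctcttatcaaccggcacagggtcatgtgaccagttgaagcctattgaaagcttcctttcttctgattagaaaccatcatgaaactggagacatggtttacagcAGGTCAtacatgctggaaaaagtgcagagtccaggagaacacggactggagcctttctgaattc
Nr6a1, an orphan receptor of germ and embryonic cells, stood at 1.92 ± 0.485 RPKM in the control and 1.74 ± 0.0551 RPKM in the dKO libraries with a limma adjusted p of 0.758. Nr4a1, an immediate early orphan receptor also called NUR77, measured 0.722, 1.94 and 1.74 RPKM in the controls and 1.31, 1.06 and 1.69 RPKM in the dKO libraries. The groups overlapped throughout, with a limma adjusted p of 0.912.

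The clock receptors REV-ERB alpha and beta (Nr1d1, Nr1d2) repress and ROR alpha (Rora) activates the same response elements. Nr1d1 measured 11.9, 12.9 and 17.3 RPKM in the controls and 15.1, 12.7 and 9.35 RPKM in the dKO libraries. Nr1d2 measured 6.4998, 7.02 and 6.42 RPKM in the controls and 7.13, 5.33 and 7.32 RPKM in the dKO libraries. Rora measured 8.03, 7.84 and 9.64 RPKM in the controls and 7.56, 8.73 and 9.7005 RPKM in the dKO libraries. All 3 overlapped between the groups. Their log2 changes were -0.17 ± 0.20 (SE), -0.02 ± 0.14 (SE) and 0.02 ± 0.14 (SE), with limma adjusted p of 0.541, 0.928 and 0.911. The hour at which livers were taken is not given in the sources used here, and these transcripts cycle over the day.

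The other 8 receptors had a mean under 1 RPKM and were not tested. Nr0b1 (DAX1), Nr2e3 (a photoreceptor factor) and Nr5a1 (SF-1 of steroid-producing tissue) were listed at 0 in all 6 libraries, and Nr2e1 (a neural stem cell factor) reached 0.0127 RPKM in 1 library. A count of 0 at these depths allows up to 3 reads, which on a transcript of 1 kb is 0.122 to 0.176 RPKM, an allowance for counting error only. Nr4a3 (NOR1) was listed at 0 in the controls and in dKO replicate 2 and at 0.09705 and 0.109 RPKM in the other dKO libraries, while Nr4a2 (NURR1) ran from 0.104 to 0.451 RPKM. Nr2f1 (COUP-TFI) ran from 0.0772 to 0.5399 RPKM. Vdr, the vitamin D receptor, which hepatocytes barely express, ran from 0.0105 to 0.0662 RPKM. No comparison between the groups was made for these genes.

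Shares within a family do not depend on the scaling of a library, because it cancels. For 9 families, grouped by name after the values had been seen, each gene's share of the summed RPKM of its family was taken in each library. In 3 of 9 families the share of the leading gene did not overlap between the groups, and in all 3 it was lower in dKO liver. These 3 families are those that hold the called genes Thra, Rxrg and Nr2f6, so the count is not separate from those calls. No such count was made over families of other genes. The Thra share of the thyroid hormone receptors was 23.8%, 32.5% and 27.8% in the control and 44.6%, 36.5% and 47.9% in the dKO libraries, so that Thrb held a smaller share in each dKO library than in any control. The Rxra share of the RXRs was 91.3%, 88.5% and 89.1% in the control and 86.3%, 85.5% and 83.1% in the dKO libraries. The Nr2f6 share of the COUP-TFs was 42.8%, 48.4% and 52.2% in the control and 57.4%, 57.96% and 53.4% in the dKO libraries, and Nr2f2, which led in the mean over control libraries, was lower in share accordingly. The RAR, PPAR, LXR, REV-ERB, TR2/TR4 and corticoid receptor families overlapped at every member. The Nr1h2 share of the LXRs, for example, averaged 37.7% ± 4.26 in control and 37.8% ± 3.49 in dKO libraries. The shares describe unequal change between the values of paralogues in those 3 families in these libraries and were not tested. As given above, the Nr2f6 and Thra values may hold reads of Ocel1 and Nr1d1 on the other strand, which taking shares does not remove.

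**Figure D3:**
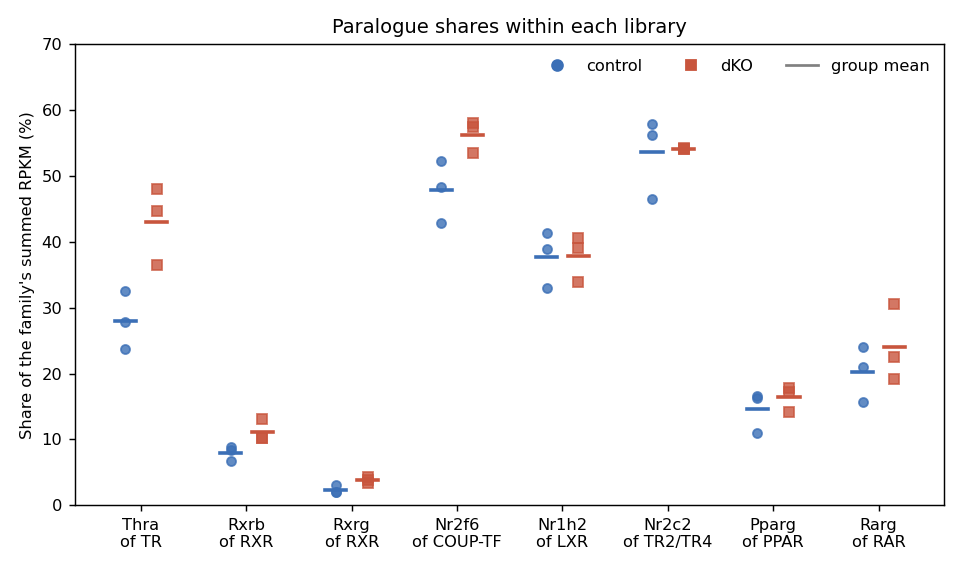
Share of a family's summed RPKM (percent, from 0) held by 8 receptor genes in each control (circles) and dKO (squares) library, with bars at the group means. Thra, Rxrb, Rxrg and Nr2f6 hold larger shares in all 3 dKO libraries than in any control library, while Nr1h2, Nr2c2, Pparg and Rarg overlap.

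Among 13 nuclear receptors outside this set, of which Nr1i2 and Nr1i3 were added to the list after their values had been seen, 6 were tested and 0 were called in either direction, with 1 higher and 1 lower at an unadjusted p under 0.05 in limma. Hnf4a, the hepatocyte identity receptor and the most abundant of all, stood at 133 ± 12.8 RPKM in the control and 114 ± 5.13 RPKM in the dKO libraries (limma adjusted p 0.295). Nr1h4, the bile acid receptor FXR, stood at 37.6 ± 7.5005 and 37.8 ± 2.24 RPKM, and its target Nr0b2 (SHP) at 15.7 ± 3.13 and 21.1 ± 10.6 RPKM, with 33.3 RPKM in dKO replicate 3. The xenobiotic receptors CAR and PXR, whose symbols carry the letter i, are included here. Nr1i3, which encodes CAR, measured 62.3, 55.7 and 52.1 RPKM in the controls and 38.6, 43.1 and 13.7 RPKM in the dKO libraries. The log2 change of Nr1i3, -0.96 ± 0.40 (SE), exceeded in size that of every tested receptor of the set but, with the dKO libraries far apart, had a limma adjusted p of 0.123. Nr1i2, which encodes PXR, measured 22.2, 27.7 and 22.5 RPKM in the controls and 24.4, 24.1 and 20.2 RPKM in the dKO libraries, with a limma adjusted p of 0.729.

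Coregulators are the proteins that receptors recruit to open or close chromatin. Over all tested genes, as above, 17.8% were called higher and 2.17% lower, and 33.0% and 4.91% had an unadjusted p under 0.05. Of 15 coactivators, 0 were called by limma (3 higher and 0 lower at an unadjusted p under 0.05), with a median log2 change of 0.13. Ppargc1a, which encodes PGC-1 alpha, stood at 3.38 ± 0.5598 RPKM in the control and 4.22 ± 0.469 RPKM in the dKO libraries (limma adjusted p 0.23). Of 10 corepressors, 1 rose and 0 fell (3 higher and 0 lower at an unadjusted p under 0.05), with a median of 0.36. The one that rose was Kdm1a, the histone demethylase LSD1, from 3.93 ± 0.457 to 7.28 ± 2.19 RPKM (limma adjusted p 0.0324). Kdm1a no longer passed once control replicate 1 or 3, or dKO replicate 1 or 3, was left out, nor with median-ratio scaling (limma adjusted p 0.0691, range over 15 alternatives 0.00464 to 0.105). Ncor1, a corepressor of unliganded receptors, stood at 16.7 ± 2.42 RPKM in the control and 17.2 ± 1.21 RPKM in the dKO libraries (limma adjusted p 0.803).

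The coregulator and target lists were chosen with earlier results of these data known, and what this did to their shares was not tested. Together they held 119 distinct genes, of which 111 were tested, 12 rose (10.8%, beside 17.8% of all tested genes) and 16 fell (14.4%, beside 2.17%). These shares over all tested genes, or 7.89% and 5.55% after median-ratio scaling, stand beside each list that follows. Without 1 library at a time these counts ran from 8 to 16 higher and from 6 to 16 lower, and removal of control replicate 3 gave the fewest falls. The number that fell was as low as 0 for the PPARA targets (without control replicate 1 or 3, and 1 without dKO replicate 2 or 3) and 0 for the LXR targets (without control replicate 3 or dKO replicate 3). It was as low as 2 for the CAR and PXR targets (without control replicate 1 or 3, and 3 without dKO replicate 2 or 3) and 2 for the glucocorticoid targets (without control replicate 3, dKO replicate 1 or dKO replicate 2), and 1 for the thyroid hormone targets (without control replicate 1). Of 20 PPARA targets, 1 rose and 3 fell (0 and 4 after median-ratio scaling), with a median log2 change of -0.24. The fatty acid hydroxylase gene Cyp4a14 fell from 272 ± 94.8 to 39.98 ± 27.8 RPKM (limma adjusted p 0.0215), and this call was lost without any 1 of the control libraries (range over 15 alternatives 0.00211 to 0.0765). Reads of Cyp4a14 may be shared with near-identical Cyp4a copies. Ehhadh, a peroxisomal oxidation enzyme gene, fell from 141 ± 26.9 to 81.8 ± 18.5 RPKM (limma adjusted p 0.0323), and Angptl4, a lipase inhibitor gene, rose from 12.2 ± 4.402 to 26.5 ± 6.28 RPKM (limma adjusted p 0.0314). Ehhadh lost its call without any library except dKO replicate 1 and Angptl4 without control replicate 1 or any dKO library, with limma adjusted p ranges over 15 alternatives of 0.0204 to 0.0974 and 0.00992 to 0.125. Angptl4 lost it also after median-ratio scaling (limma adjusted p 0.125). The mean level of Ppara itself differed between the groups by less than 1 SD.

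Of 12 LXR targets, 1 rose and 1 fell (1 and 5 after scaling), with a median of 0.20. Pltp, a phospholipid transfer protein gene, rose from 3.81 ± 1.23 to 9.96 ± 2.58 RPKM (limma adjusted p 0.0109). Abcg8, which encodes a sterol exporter subunit, fell from 27.2 ± 3.79 to 17.01 ± 1.75 RPKM (limma adjusted p 0.0184), a call that was lost without control replicate 3 or dKO replicate 3 (range over 15 alternatives 0.00312 to 0.0631). Of 15 CAR and PXR targets, 3 rose and 5 fell (2 and 5 after scaling), with a median of -0.30. Abcc3, a conjugate exporter gene, rose from 32.01 ± 2.74 to 77.95 ± 4.64 RPKM, and Gadd45b, a stress response gene, from 1.72 ± 0.623 to 12.8 ± 5.82 RPKM, whereas the cytochrome gene Cyp2c37 fell from 229 ± 21.5 to 72.6 ± 29.1 RPKM. Their limma adjusted p were 0.00118, 0.00335 and 0.00519, and they passed in all 15 alternatives. Reads of Cyp2c37 may be shared with near-identical Cyp2c copies.

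Of 14 glucocorticoid receptor targets, 2 rose and 5 fell (1 and 5 after scaling), and the median was -0.59. Fkbp5, a chaperone gene that restrains the receptor, rose from 8.52 ± 0.935 to 19.8 ± 4.05 RPKM, while the tyrosine aminotransferase gene Tat fell from 356 ± 46.1 to 148 ± 43.2 RPKM and the metallothionein gene Mt1 from 2059 ± 966 to 359 ± 83.6 RPKM. These 3 passed in all 15 alternatives, with limma adjusted p of 0.0039, 0.0101 and 0.00818. Of 14 clock genes, 11 were tested, 2 rose and 0 fell (0 lower also at an unadjusted p under 0.05 in limma). Npas2, a partner of BMAL1 that REV-ERBs repress, rose from 1.604 ± 0.2999 to 4.84 ± 1.602 RPKM (limma adjusted p 0.0125), and Tef, an output factor gene, from 6.71 ± 0.256 to 10.01 ± 0.334 RPKM (limma adjusted p 0.0172). Npas2 lost its call without control replicate 1 and with quantile normalization, and Tef without control replicate 1 or 3 or dKO replicate 1 and after median-ratio scaling (limma adjusted p 0.141). The ranges of limma adjusted p over 15 alternatives were 0.00496 to 0.0526 and 0.0013 to 0.147. Arntl, which encodes BMAL1 and is a direct REV-ERB and ROR target, stood at 6.42 ± 1.19 RPKM in the control and 7.91 ± 0.978 RPKM in the dKO libraries (limma adjusted p 0.227).

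Of 7 thyroid hormone targets, 6 were tested, 0 rose and 2 fell (1 higher and 3 lower at an unadjusted p under 0.05 in limma). Gpd2, the mitochondrial glycerol phosphate dehydrogenase gene, fell from 18.5 ± 3.58 to 9.01 ± 1.21 RPKM and Thrsp, a lipogenic gene, from 44.9 ± 9.64 to 17.2 ± 7.21 RPKM, with limma adjusted p of 0.00818 and 0.0149. Thrsp lost its call without control replicate 1 and with sample weights (range over 15 alternatives 0.00365 to 0.0619). Of 8 retinoic acid targets, 6 were tested, 2 rose and 0 fell (3 higher and 0 lower at an unadjusted p under 0.05 in limma). Tgm2, a transglutaminase gene, rose from 62.8 ± 9.25 to 132 ± 31.01 RPKM (limma adjusted p 0.0113) in every alternative. Dhrs3, a retinal reductase gene, rose from 98.9 ± 11.3 to 158 ± 13.7 RPKM (limma adjusted p 0.023), but not after median-ratio scaling (limma adjusted p 0.18) or with control replicate 1, control replicate 3, dKO replicate 2 or dKO replicate 3 left out (range over 15 alternatives 0.00611 to 0.18). Cyp26a1, the retinoic acid hydroxylase gene, measured 2.43, 10.4 and 4.61 RPKM in the controls and 5.11, 2.92 and 35.7 RPKM in the dKO libraries, so 1 dKO library held most of its signal, and its limma adjusted p was 0.623. Of 5 vitamin D genes 3 were tested and 0 were called (0 also at an unadjusted p under 0.05 in limma), and Cyp24a1, the hydroxylase that Vdr induces, was listed at 0 in all libraries.

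**Figure D4:**
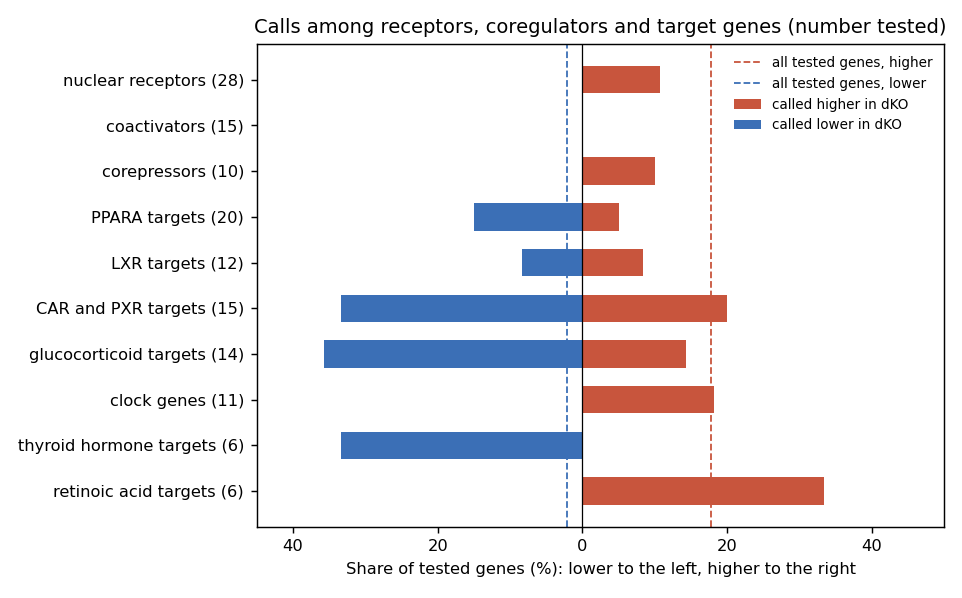
Percentage of the tested genes of each list called higher (bars to the right) or lower (bars to the left) in dKO liver at a limma adjusted p under 0.05, with the number tested in brackets and dashed lines at the shares over all tested genes, 17.8% and 2.17%. The lists were chosen with earlier results of these data known. The receptors, coactivators, corepressors, clock genes and retinoic acid targets have no bar to the left, and the coactivators have none to the right either. The PPARA, LXR, CAR and PXR, glucocorticoid and thyroid hormone targets reach past the left dashed line.

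Promoter windows of RefSeq, 250 bases before to 50 bases after a start, were used for 33 of the 36 genes, with none for Thra, Nr3c1 and Nr5a1. Receptor windows on the chromosome of Nr3c1 were left out, whereas the windows over all genes kept that chromosome. The nuclear receptor half-site AGGTCA, on either strand, lay in 11 of 48 receptor windows (22.9%, beside 16.3% of all 32851 windows). Genes with it included Rxra, Rxrg, Rarg, Pparg, Nr1d2 and Nr5a2. The TEAD core GGAATG, the letters bound by the partners of YAP, lay in 8 windows (16.7%, beside 14.7%). It was found in Nr1h5, Nr5a2, Rarb, Nr1d2, Nr4a1, Nr4a3, Esr1 and Thrb, and in neither Nr2f6 nor Rxrg. In Nr5a2 the GGAATG lay in the window of the downstream start and the AGGTCA in that of the upstream start, the one printed above. The E-box CACGTG lay in 3 windows, those of Rara and Thrb (6.25%, beside 7.15%). The Rara windows with it overlap and hold the same site, so counts of windows are not counts of separate sites. These are matches of letters, with no measure of binding.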

How the data were processed

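Poly-A RNA libraries from 3 control and 3 dKO livers were used, 1 file each. The authors deposited RPKM values per gene symbol. No label or header names the unit, which was inferred from low values lying near whole multiples of 1 read (72.7% to 79.5% within 0.15 of a whole read, where evenly spread values give 30%; the spacing was chosen on the same values). Per the submitters' processing notes the genome was mm9, and the aligner, counter and annotation are not given in the sources used here. GENCODE M21 and RefSeq GRCm38.p6 served for symbols, neighbouring genes and promoter sequence. GENCODE M21 also gave the transcript lengths, of genes with 1 transcript, behind the depth estimates and the inferred unit. The lengths used for the deposited values are not known and may differ. No protein sequence was used here.

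Genes averaging 1 RPKM or more were fitted as log2(RPKM + 1) with limma 3.58.1 (trend and robust, R 4.3.3) and adjusted over all 11062 by Benjamini-Hochberg. Fold changes on this scale understate those of low genes. Tables and figures used Python 3.11.15, numpy 2.4.6, pandas 2.3.3 and matplotlib 3.10.9. The fit was tested on simulated data only, with independent noise of the same size for all genes, no group-wide shift and no outlying library. Such a test cannot show how the calls hold up where these features are present.

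The members and lists were chosen with earlier results of these data known. Values in each library are given for every called receptor and for a fixed list of main receptors with a mean of at least 1 RPKM. Nr1i2 and Nr1i3 were on that list but fall outside the symbol rule. Of each pathway list up to 3 called genes with the smallest adjusted p are named, with Ppargc1a, Ncor1, Hnf4a, Nr0b2, Nr1h4, Cyp26a1, Cyp24a1 and Arntl in any case; 1 further gene of that rule is not reported here. Lymphocyte, neutrophil and erythroid markers summed to 3.42 to 7.91, 35.0 to 107 and 98.5 to 405 RPKM over the 6 libraries, with 0 called. Adgre1 and Tf were matched as Emr1 and Trf, and Ly6g was not matched. Alternatives covered the pseudocount, filter, moderation, scaling, sample weights, the replicate number and each library left out.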

Additional observations from a re-analysis of the deposited data

How the results depend on the processing

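Each count was recomputed under 15 alternatives, those for the pathway lists chosen after seeing the data. Receptors called higher (3) were 0 without a filter and with median-ratio, upper-quartile or quantile scaling, and 10 with sample weights. Receptors called lower (0) were 2 with median-ratio or upper-quartile scaling, 3 with quantile normalization and 2 with sample weights. Over all tested genes, the 1965 calls higher and 240 lower were 873 and 614 with median-ratio, 953 and 540 with upper-quartile and 727 and 554 with quantile scaling, and 4133 and 601 with sample weights; without a filter 145 were lower. Over the pathway lists, the 12 higher were 6, 7 and 7 with median-ratio, upper-quartile and quantile scaling and 26 with sample weights, and the 16 lower were 10 without a filter.

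Without 1 library at a time, receptors called higher ran from 0 (without control replicate 1, dKO replicate 1 or dKO replicate 3) to 4, with 1 without control replicate 3 or dKO replicate 2, and receptors called lower stayed at 0. All genes called higher ran from 763 (without control replicate 1) to 1992 and lower from 90 (the same library) to 241. They were 957 and 116 without control replicate 3, 988 and 126 without dKO replicate 3, 1153 higher without dKO replicate 1 and 151 lower without dKO replicate 2. Pathway genes called higher ran from 8 to 16 and lower from 6 to 16, with 8, 9 and 10 lower without control replicate 1, dKO replicate 2 and dKO replicate 3. The cause was not tested, beyond each such fit having fewer libraries.

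With the replicate block, 2 receptors were called higher and 0 lower, beside 1513 and 202 of all genes. Rxrg lost its call (limma adjusted p 0.0716). Same-numbered libraries did not deviate together (correlations -0.08, -0.10 and -0.01), and the labels give no sign that the numbers pair samples.

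Of 420 values (28 receptors by 15 alternatives), 332 kept direction and side of the threshold, 26 fell below it, 19 newly passed and 43 changed sign. Sign changes touched 13 receptors, none of them called, and none passed. The log2 changes that turned negative were -0.0108 for Esr1, -0.26 for Nr1h2, -0.27 for Nr1h3, -0.0992 for Nr2f2, -0.22 for Ppara and -0.23 for Rora with median-ratio scaling, -0.22 for Nr1h2, -0.23 for Nr1h3, -0.0599 for Nr2f2, -0.18 for Ppara and -0.20 for Rora with upper-quartile scaling, and -0.0261 for Esr1, -0.20 for Nr1h2, -0.15 for Nr1h3, -0.0579 for Nr2f2, -0.11 for Ppara, -0.0337 for Ppard, -0.0136 for Pparg and -0.22 for Rora with quantile normalization. With sample weights the values of opposite sign were 0.0693 for Nr1d2, -0.00602 for Ppara, -0.20 for Rora and 0.0108 for Rxra. Without 1 library at a time, the log2 changes that crossed 0 ran from -0.32 to 0.0033 for Nr1d1, -0.0915 to 0.11 for Nr1d2, -0.0262 to 0.0787 for Nr1h2, -0.0858 to 0.17 for Nr1h3, -0.28 to 0.11 for Nr4a1, -0.22 to 0.0171 for Nr6a1, -0.0694 to 0.21 for Ppara, -0.0533 to 0.11 for Rora and -0.0443 to 0.00907 for Rxra. Depth limits genes under 1 RPKM.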
